A study of Homo sapiens with 6 samples.

Results

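The well expressed ZNF zinc finger genes were the genes whose symbol is ZNF followed by a number, and where present a letter, whose mean over the 6 libraries reached 500 normalized counts. They numbered 199 of the 439 ZNF genes in the table and of the 16834 genes tested in all, and the other 240 ZNF genes lay under the limit. The mean over all libraries chose the members, so their levels are a description, and 193 of them reached 500 in the mean of both groups. Just inside the limit lay ZNF271P, a transcribed pseudogene, with a mean of 500.9 and ZNF181 with 501, and just outside it lay ZNF324B with 499.8 and ZNF33B with 499. The other 198 members code for a protein.

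The libraries came from HEK293-T Flp-In cells, a human embryonic kidney line, that were grown with serum and hygromycin B, were not synchronized and carried 1 inserted copy of ccTaggedRP behind the CAG promoter. ccTaggedRP makes 1 polypeptide that is cut into a pair of tagged copies of the ribosomal protein RPL10a, encoded by mouse cDNA, and every library therefore came from cells that carry both. The 3 Flag-IPs recovered RNA with Flag-RPL10a-hCdt, whose Cdt1 degron targets it for degradation from late S phase, and the 3 HA-IPs recovered RNA with HA-RPL10a-hGem, whose geminin degron targets it for degradation from late G1 into early S phase. The comparison asks which messages differ between ribosomes tagged in different phases of the cell cycle. Each value is a normalized count, the reads of a gene divided by a size factor of its library. The reads assigned to the genes of the table numbered 23174532 to 44134833 per library. Log2 fold changes set the HA-IPs against the Flag-IPs, and a positive one means more in the HA-IPs. In these bulk IPs, fewer cells in a phase and less RNA per cell cannot be told apart. The labels do not say whether the replicates came from separate cultures, so the p-values measure the spread between these libraries.

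C2H2 zinc finger proteins form the largest family of DNA-binding proteins in the human genome. Each finger is a short loop in which a pair of cysteines and a pair of histidines hold a zinc ion, and fingers in tandem read successive bases of DNA. Many ZNF proteins carry a KRAB box near the amino terminus, which recruits TRIM28 (KAP1) and through it the histone H3 lysine 9 methyltransferase SETDB1, heterochromatin proteins and histone deacetylases. KRAB zinc finger genes sit in large clusters on chromosome 19, and many silence transposable elements. ZNF proteins without a KRAB box have mixed roles as transcription factors, RNA-binding proteins and partners of the ribosome.

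The KRAB box was found in 102 of the members, and 97 had none, with ZNF271P counted among the latter. The coding sequence of the box is shown for 4 members whose level differed between the IPs, because members with the box are compared with members without it. Capitals mark the codons of the stretch from the conserved tryptophan to the conserved glutamate, in the part of the box that binds TRIM28. The sequences are read from GENCODE 44 (GRCh38) and lie in exon 2 of 4 of ZNF264 (chr19:57193893-57194000, plus strand), exon 6 of 8 of ZNF37A (chr10:38114773-38114880, plus strand), exon 3 of 5 of ZNF790 (chr19:36823668-36823775, minus strand) and exon 1 of 3 of ZNF689 (chr16:30609838-30609945, minus strand).
ZNF264: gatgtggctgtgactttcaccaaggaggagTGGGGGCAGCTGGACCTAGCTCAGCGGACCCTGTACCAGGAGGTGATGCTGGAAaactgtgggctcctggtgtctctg
ZNF37A: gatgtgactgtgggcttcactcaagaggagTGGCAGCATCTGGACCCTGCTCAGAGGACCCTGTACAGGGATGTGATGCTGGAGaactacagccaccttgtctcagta
ZNF790: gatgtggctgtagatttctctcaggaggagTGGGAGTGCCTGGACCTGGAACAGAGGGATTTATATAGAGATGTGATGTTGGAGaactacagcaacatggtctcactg
ZNF689: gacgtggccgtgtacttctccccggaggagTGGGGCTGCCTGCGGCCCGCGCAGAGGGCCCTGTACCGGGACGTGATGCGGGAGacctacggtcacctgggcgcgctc
Between any pair of these boxes, 21 to 25 of the 36 encoded residues were identical. The boxes of ZNF264 and ZNF37A belong to genes that were higher in the HA-IPs, and those of ZNF790 and ZNF689 to genes that were higher in the Flag-IPs. Their GC content ran from 48.1% in ZNF790 to 72.2% in ZNF689.

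One finger each from 4 members shows the repeat that defines C2H2 zinc finger proteins and how its base composition can differ. The members were chosen by symbol, and the classical pattern of the finger was not found in ZNF503. Capitals mark the codons of the cysteines and histidines that hold zinc. The fingers lie in exon 2 of 2 of ZNF580 (chr19:55642788-55642850, plus strand), exon 3 of 3 of ZNF48 (chr16:30397590-30397652, plus strand), exon 4 of 4 of ZNF264 (chr19:57211710-57211772, plus strand) and exon 5 of 5 of ZNF790 (chr19:36819600-36819662, minus strand).
ZNF580: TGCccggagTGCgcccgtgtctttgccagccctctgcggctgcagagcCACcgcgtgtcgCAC
ZNF48: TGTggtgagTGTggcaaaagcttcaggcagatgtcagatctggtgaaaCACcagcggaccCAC
ZNF264: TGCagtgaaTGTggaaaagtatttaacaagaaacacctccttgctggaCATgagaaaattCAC
ZNF790: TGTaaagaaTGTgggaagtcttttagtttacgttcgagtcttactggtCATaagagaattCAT
The same 63-base frame is 71.4% GC in ZNF580, 54.0% in ZNF48, 38.1% in ZNF264 and 34.9% in ZNF790. This range recurs in the whole transcripts, where the GC content was 69.2% in ZNF580 and 38.3% in ZNF790, and the members of highest GC content are described separately for the spread of their replicates.

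Few ZNF members differed between the IPs, and those that did were mostly higher in the HA-IPs, though not once the libraries were scaled to the same total. In limma, 11 of the 199 were higher in the HA-IPs, and another 4 were higher in the Flag-IPs, at a Benjamini-Hochberg adjusted p of at most 0.05 over all genes, together 7.54% of the members. Over all genes the share was 12.9%, with 5.79% higher in the HA-IPs and 7.1% higher in the Flag-IPs. Among the 8249 genes whose mean reached 500 it was 18.5%, with 11.2% and 7.24% in the 2 directions, but these genes share only the lower limit with the members, and their median level was 1696 normalized counts against 929. The share that passed rose with level, so it is also given by level. From 500 to under 1000 normalized counts, 6.25% of the 112 members passed beside 9.74% of all genes of that range, with 3.57% beside 2.97% higher in the HA-IPs and 2.68% beside 6.77% higher in the Flag-IPs. From 1000 to under 2000, 6% of the 50 members passed beside 14.5%, with 4% beside 6.22% higher in the HA-IPs and 2% beside 8.27% higher in the Flag-IPs. From 2000 up, where other genes reach higher levels than any member, 13.5% of the 37 members passed beside 26.6%, with 13.5% beside 19.7% higher in the HA-IPs and 0% beside 6.87% higher in the Flag-IPs. The members' share higher in the Flag-IPs was thus the lower in each range, whereas that higher in the HA-IPs lay slightly above that of all genes in the lowest range and under it in the upper ones. These differences in share were not tested.

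The differences were small. The median log2 fold change of the members was 0.059, beside -0.0049 over all genes and 0.035 over genes whose mean reached 500, and 137 members (68.8%) were higher in the mean of the HA-IPs. With the libraries scaled to the same total the medians were 0.0059 for the members and -0.057 for all genes. For 188 of the 199, the 95% interval of the difference lay within 0.5 in either direction on the log2 scale, which is a fold of 1.41, and 4 members had an estimate beyond it. The replicates of the groups did not overlap in 60 members, 47 of them higher in the HA-IPs (23.6%) and 13 higher in the Flag-IPs (6.53%). Over all genes, 16.1% did not overlap in each direction, and over the genes whose mean reached 500 the shares were 26.8% and 15.5%. By level, the members' share with the HA-IPs higher was 19.6% beside 13.8% of all genes from 500 to under 1000, 28% beside 21.4% from 1000 to under 2000 and 29.7% beside 38.6% from 2000 up. The 240 ZNF genes under the limit had a median of 0.012, and 3 of them passed the test.

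**Figure D1:**
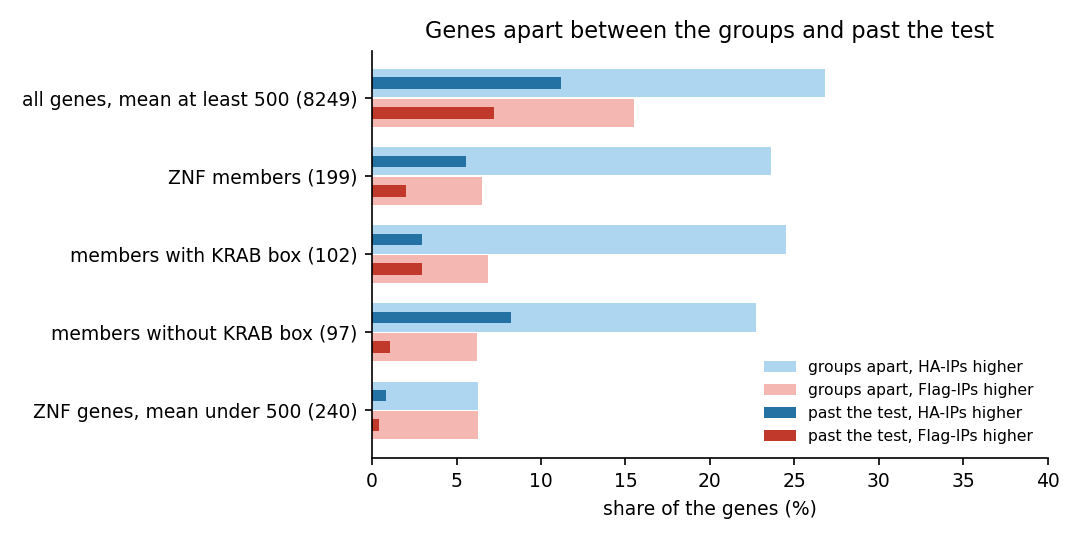
Share of genes (%) whose groups of 3 replicates did not overlap (light bars) and that passed the limma test (dark bars), for the HA-IPs higher (blue) and the Flag-IPs higher (red), with the number of genes in parentheses. The ZNF members reach 5.53% and 2.01% past the test, beside 11.2% and 7.24% of all genes whose mean reached 500.

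These counts rest on which libraries are compared. Leaving out Flag-IP replicate 1, 2 or 3 left 10, 1 and 24 members higher in the HA-IPs and 3, 1 and 6 higher in the Flag-IPs, while leaving out HA-IP replicate 1, 2 or 3 left 1, 0 and 2 higher in the HA-IPs and 1 each higher in the Flag-IPs. With the libraries scaled to the same total the split turned to 3 higher in the HA-IPs and 6 higher in the Flag-IPs, and with quantile normalization it was 7 and 1. Without HA-IP replicate 2, limma gave 39 members an unadjusted p under 0.05 in either direction, beside 48 with all libraries.

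The Flag-IPs also held more RNA of genes that mark heart muscle. All 16 heart muscle markers of the 20 listed that were in the table passed the test in that direction, with a median log2 fold change of -4.58. Their summed level was 100357.7 to 210936 normalized counts in the Flag-IPs and 1878 to 19618 in the HA-IPs, highest among the HA-IPs in replicate 3, and none was at 0 in all libraries. The median log2 deviation of the markers from their mean over the 6 libraries was 3.05, 2.32 and 1.77 in Flag-IP replicates 1 to 3. It was -3.14, -3.85 and -0.079 in HA-IP replicates 1 to 3. The part of the heart muscle RNA in the differences of the members was not tested. The 7 markers of the kidney line were all detected, with KRT8, KRT18, VIM and CDH2 between 2775 and 27005 normalized counts in every library. Of the 7, 2 passed the test higher in the HA-IPs, EPCAM (0.34, limma adjusted p = 0.0029) and CDH1 (0.29, limma adjusted p = 0.017). PAX2 was the 1 that passed higher in the Flag-IPs (-0.79, limma adjusted p = 0.047), at only 44.1 to 131 normalized counts.

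Per kilobase of transcript, the scale on which genes can be compared, the members ranged from 36.7 to 4556 normalized counts with a median of 235. The highest was ZNF503, a transcriptional repressor of development, at 4556 per kb, with 3283 to 5496 over the libraries. ZNF146, a protein made almost wholly of fingers, followed at 3785 and ZNF711, an X-linked factor that brings the histone demethylase PHF8 to promoters, at 3595. The ranges of these 3 genes over the libraries overlapped. ZNF598, the ubiquitin ligase that marks collided ribosomes, stood at 3019 with a range of 2832 to 3238, below the lowest library of ZNF711. ZNF703, the close relative of ZNF503, stood at 2679, and its range of 1783 to 3122 overlapped that of ZNF598.

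**Figure D2:**
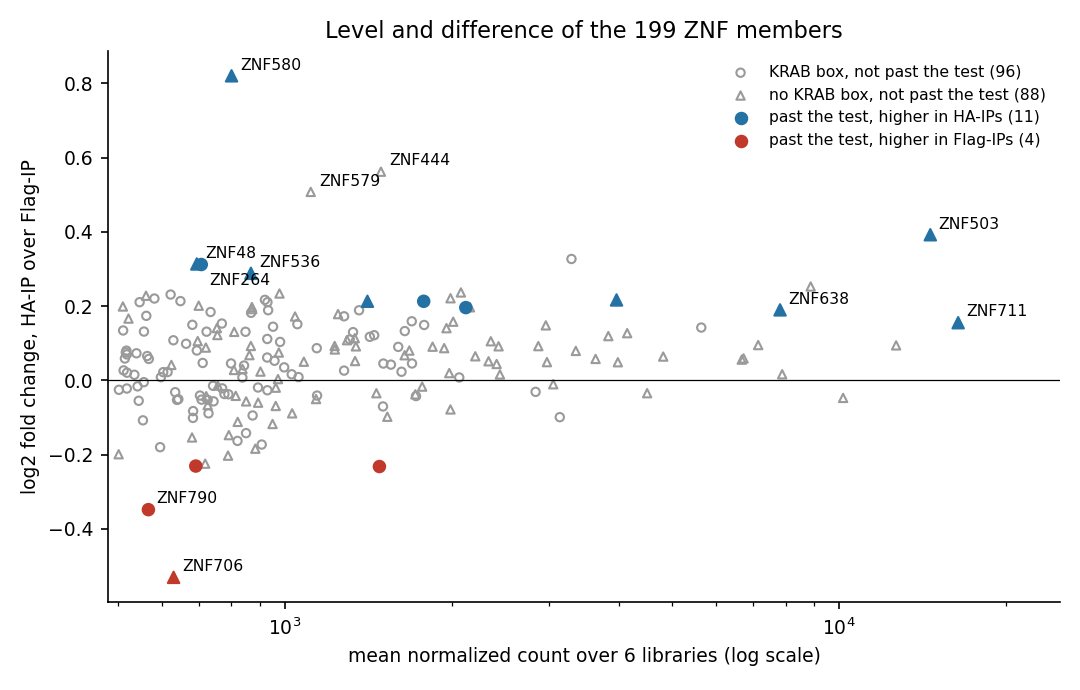
Mean normalized count over the 6 libraries (log axis) against the log2 fold change, HA-IPs over Flag-IPs, for the 199 members, with circles for genes with a KRAB box and triangles for genes without. Filled symbols passed the test, 11 higher in the HA-IPs (blue) and 4 higher in the Flag-IPs (red). Most members lie close to 0, and ZNF580 at 0.82 and ZNF706 at -0.53 are the extremes.

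Of the 11 members higher in the HA-IPs, 8 had no KRAB box. ZNF580, a short protein of 3 fingers, had the largest difference. It measured 359.7, 570.0 and 878 normalized counts across Flag-IP replicates 1, 2 and 3 against 989, 1043 and 964 across the HA-IPs, with a log2 fold change of 0.82 ± 0.23 (SE), limma adjusted p = 0.038. The Flag-IPs spread more than 2-fold while the HA-IPs lay close together, and the highest Flag-IP stayed under the lowest HA-IP. Without Flag-IP replicate 1 the log2 fold change was 0.50, and without Flag-IP replicate 3 it was 1.14. Tested on whole reads, ZNF580 did not pass in edgeR (0.71, edgeR adjusted p = 0.053) or in DESeq2 (0.73, DESeq2 adjusted p = 0.19).

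ZNF503 measured 10520.5, 12991 and 14539 across the Flag-IPs against 15999.5, 17616 and 15938 across the HA-IPs, a log2 fold change of 0.39 ± 0.10 (SE), limma adjusted p = 0.021. Its lowest value was again in Flag-IP replicate 1, and the difference without that library was 0.26. ZNF48 measured 595, 564 and 699 across the Flag-IPs against 742, 759.6 and 798 across the HA-IPs (0.31 ± 0.087 (SE), limma adjusted p = 0.037). ZNF536, a repressor known from neuronal differentiation, measured 735, 774 and 832 across the Flag-IPs against 1043, 967 and 856 across the HA-IPs (0.29 ± 0.084 (SE), limma adjusted p = 0.044). In both genes the groups were apart by a narrow margin, from 699 to 742 and from 832 to 856. Of the 4846 windows of the ZNF536 transcript, each slightly shorter than a read, 776 also occur in a transcript of another gene, so its reads may be shared.

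The next members had log2 fold changes close to 0.2. ZNF318, a nuclear protein needed in B cells for the choice between IgM and IgD messages, measured 3396, 3601 and 4018 across the Flag-IPs against 4146, 4400.3 and 4224 across the HA-IPs (0.22 ± 0.063 (SE), limma adjusted p = 0.043). ZNF518A, a partner of histone H3 lysine 9 and lysine 27 methyltransferases, measured 1321, 1275 and 1317 across the Flag-IPs against 1538, 1525 and 1473 across the HA-IPs (0.21 ± 0.055 (SE), limma adjusted p = 0.027). ZNF638, an RNA-binding protein that also recruits the HUSH silencing complex to unintegrated retroviral DNA, measured 6957, 7029 and 7955 across the Flag-IPs against 8113, 8487 and 8383 across the HA-IPs (0.19 ± 0.057 (SE), limma adjusted p = 0.0498). ZNF711 was the member of highest mean count, with 15199.5, 15430.3 and 15906 across the Flag-IPs against 17407, 17302 and 17103 across the HA-IPs (0.16 ± 0.044 (SE), limma adjusted p = 0.039). In all 4 the lowest HA-IP lay above the highest Flag-IP, in ZNF638 and ZNF318 by the small gap to Flag-IP replicate 3.

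The 3 KRAB genes higher in the HA-IPs were ZNF264, ZNF263 and ZNF37A. ZNF264 measured 616, 665 and 609.7 across the Flag-IPs against 811, 780.4 and 754 across the HA-IPs (0.31 ± 0.071 (SE), limma adjusted p = 0.016), a difference well beyond the spread of either group. ZNF263, which also carries the SCAN box that pairs such proteins with each other, measured 1561, 1596 and 1791 across the Flag-IPs against 1888, 1953 and 1884 across the HA-IPs (0.21 ± 0.063 (SE), limma adjusted p = 0.046). ZNF37A measured 1969, 2015 and 1939.8 across the Flag-IPs against 2126, 2306 and 2359.8 across the HA-IPs (0.20 ± 0.056 (SE), limma adjusted p = 0.042). Of the windows of their transcripts, 47.9% in ZNF263 and 9.07% in ZNF37A also occur in another gene's transcript, so both values are less certain than that of ZNF264, where no window did.

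The 4 members higher in the Flag-IPs were ZNF706, ZNF790, ZNF689 and ZNF394, and all but ZNF706 carry a KRAB box. ZNF706, a protein of only 76 residues with 1 finger, measured 801, 759 and 673 across the Flag-IPs against 516, 490.2 and 536 across the HA-IPs, a log2 fold change of -0.53 ± 0.084 (SE), limma adjusted p = 0.0029. ZNF790 measured 578, 640.1 and 689 across the Flag-IPs against 487, 498 and 508 across the HA-IPs (-0.35 ± 0.083 (SE), limma adjusted p = 0.020). ZNF689 measured 1587, 1697 and 1513 across the Flag-IPs against 1451, 1346 and 1286 across the HA-IPs (-0.23 ± 0.067 (SE), limma adjusted p = 0.042). ZNF394, which has both a KRAB and a SCAN box, measured 761, 744 and 731 across the Flag-IPs against 628, 647 and 629.6 across the HA-IPs (-0.23 ± 0.066 (SE), limma adjusted p = 0.042). None of these groups overlapped, and ZNF394 had the tightest replicates, with 745 ± 15.3 in the Flag-IPs and 635 ± 10.4 in the HA-IPs (mean ± SD, n = 3 each).

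**Figure D3:**
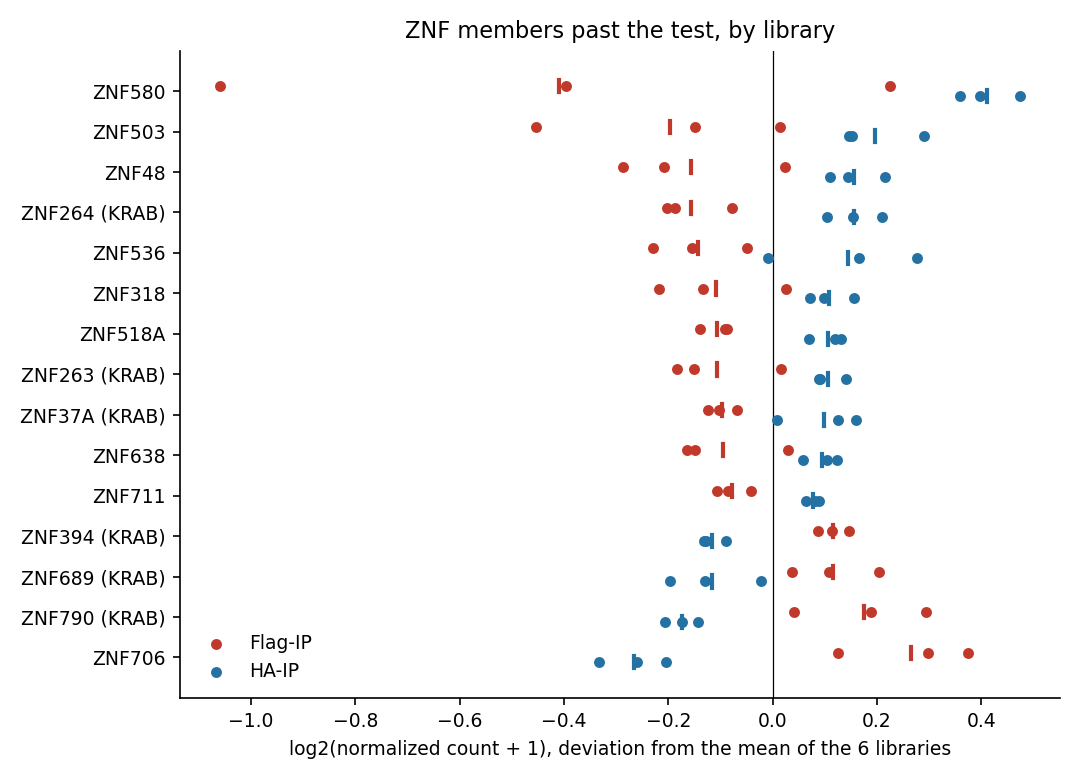
Deviation of each library from the gene's mean over the 6 libraries, on the log2(normalized count + 1) scale, for the 15 members that passed the test. Red points are the 3 Flag-IPs, blue points the 3 HA-IPs and short bars the group means, and the groups do not overlap in any of the 15. ZNF580 and ZNF503 show Flag-IP replicate 1 far to the left of the other libraries.

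ZNF706 passed the test in all 6 fits that left out 1 library, and ZNF264 in 4 of them, all but those without HA-IP replicate 1 or 2. Another 7 of the 15 passed in 2 of the 6 fits and the other 6 in 1, and every one of the 15 kept its direction in all of them. Without Flag-IP replicate 3, 14 of the 15 passed. Without the other libraries in turn, 8 passed without Flag-IP replicate 1 and 2 without Flag-IP replicate 2. Omitting HA-IP replicate 1, 2 or 3 left 2, 1 and 3. With all libraries, ZNF580, ZNF711 and ZNF638 did not pass in edgeR, and ZNF580 and ZNF394 did not pass in DESeq2.

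With a KRAB box, 3 of 102 were higher in the HA-IPs, as many were higher in the Flag-IPs, and the median log2 fold change was 0.045. Without a KRAB box, 8 of 97 were higher in the HA-IPs, 1 was higher in the Flag-IPs, and the median was 0.075. The groups of replicates did not overlap with the HA-IPs higher in 24.5% of the former and 22.7% of the latter, beside 16.1% of all genes and 26.8% of genes whose mean reached 500. In either direction 5.88% and 9.28% passed, beside 12.9% of all genes, and the difference between them was not tested. From 500 to under 1000 normalized counts, which holds 72 of the KRAB genes and 40 of the others, 4.17% and 10% passed, beside 9.74% of all genes of that range. In the upper ranges the order was the reverse. From 1000 to under 2000, 8.33% of 24 KRAB genes and 3.85% of 26 others passed, beside 14.5% of all genes. From 2000 up, 16.7% of 6 KRAB genes and 12.9% of 31 others passed, beside 26.6% of all genes. With the libraries scaled to the same total the median of the KRAB genes turned to -0.0076 and that of the genes without a KRAB box was 0.022, while that of all genes moved from -0.0049 to -0.057.

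The KRAB genes were the lower expressed, longer in fingers and poorer in GC of the 2 kinds. Their median was 784 normalized counts, 12 fingers and 43.1% GC, against 1294, 8 and 49.7% for the genes without a KRAB box. On chromosome 19 lay 77 of the members, 58 of them with a KRAB box. Of these 58, 1 was higher in each IP, and of the 44 KRAB genes on other chromosomes 2 were higher in each. In either direction 3.45% and 9.09% passed, beside 12.9% of all genes. The median log2 fold changes of these 58 and 44 genes were 0.040 and 0.046. The 14 members with a SCAN box, 11 of which also have a KRAB box, held ZNF263 and ZNF394 as the 2 that passed, in opposite directions.

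The medians neither rose nor fell steadily with the number of fingers or the length of the transcript. With under 5 fingers 38 members had a median log2 fold change of 0.059, with 5 to 9 fingers 60 members had 0.041, and with 10 or more 100 members had 0.082. The 40 members with transcripts under 3000 bases had a median of 0.048, the 77 from 3000 to under 5000 bases had 0.067, and the 82 of 5000 bases or more had 0.060. By level, the median was 0.029 in the 112 members under 1000 normalized counts, 0.087 in the 50 from 1000 to under 2000 and 0.092 in the 37 from 2000 up. Over all genes of these ranges the median rose as well, from -0.013 to 0.017 and 0.071. These are descriptions over genes that share the same 6 libraries.

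The partners through which KRAB proteins silence were measured from a list of 28 symbols, of which 27 were in the table. In the HA-IPs 4 of the 27 were higher, and none passed in the other direction, and the median log2 fold change was 0.10, beside -0.0049 over all genes and 0.035 over those whose mean reached 500. The 14.8% that passed lies near the 12.9% of all genes and under the 18.5% of genes whose mean reached 500, and every gene of the list had a mean of at least 1191. TRIM28, the corepressor that KRAB boxes bind, measured 56590.5, 56697 and 63440.4 normalized counts across the Flag-IPs against 73459, 74001 and 73362 across the HA-IPs (0.32 ± 0.057 (SE), limma adjusted p = 0.0051). Its relative TRIM24 measured 2389.5, 2377 and 2439 across the Flag-IPs against 2793, 2960.3 and 2881 across the HA-IPs (0.26 ± 0.049 (SE), limma adjusted p = 0.0071). SETDB1, the methyltransferase that TRIM28 recruits, measured 4492, 4589 and 4722 across the Flag-IPs against 5153, 5448 and 5533 across the HA-IPs (0.22 ± 0.049 (SE), limma adjusted p = 0.013). DNMT1, the maintenance DNA methyltransferase, measured 23479.8, 23243 and 25778 across the Flag-IPs against 27353, 27858 and 27793 across the HA-IPs (0.20 ± 0.052 (SE), limma adjusted p = 0.030). In none of the 4 did the groups overlap.

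The other 23 partners did not pass. The 3 heterochromatin proteins, CBX1, CBX3 and CBX5, had log2 fold changes of -0.12, -0.15 and -0.092, with overlapping groups. Over the whole list of 27, the groups did not overlap with the HA-IPs higher in 13 genes (48.1%), the 4 that passed among them. This stood beside 16.1% of all genes, 26.8% of genes whose mean reached 500 and 38.6% of genes from 2000 up. SUV39H2, an H3 lysine 9 methyltransferase, was the 1 gene of the list (3.7%) with all Flag-IPs above all HA-IPs (-0.21, limma adjusted p = 0.082). That share was 16.1% over all genes and 15.5% over genes whose mean reached 500. These differences in share were not tested. The HUSH genes TASOR, MPHOSPH8 and PPHLN1 had 0.14, 0.051 and 0.062. TRIM28 and TRIM24 passed in all 6 fits that left out 1 library, SETDB1 in 3 and DNMT1 in 2. The count of 4 fell to 2 without Flag-IP replicate 2, HA-IP replicate 2 or HA-IP replicate 3, and rose to 8 without Flag-IP replicate 3.

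Among the members, 37 belong to a list of a known role, and 4 of them (10.8%) passed the test, all higher in the HA-IPs, beside 12.9% of all genes and 18.5% of genes whose mean reached 500. These were ZNF503 and ZNF711 of the 18 transcription factors without a KRAB box, ZNF638 of the 6 RNA-binding members and ZNF518A of the 3 histone methyltransferase partners. Of the 2 members tied to the ribosome, ZNF598 measured 9532, 10572 and 10901 across the Flag-IPs against 9823, 10503 and 9646 across the HA-IPs, with overlapping groups and a 95% interval of -0.18 to 0.081 for the log2 fold change. ZNF622, which acts in the maturation of the large ribosomal subunit, measured 3909, 3819.6 and 4157 across the Flag-IPs against 4250.0, 4268 and 4457 across the HA-IPs, groups that did not overlap, but its log2 fold change of 0.13 ± 0.051 (SE), limma adjusted p = 0.13, did not pass.

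ZNF207 (BUGZ), which binds spindle microtubules and the kinetochore protein BUB3, measured 6918, 6501 and 6209 across the Flag-IPs against 6786, 6511 and 7097 across the HA-IPs, with an interval of -0.064 to 0.17. The groups overlapped. The 3 partners of ZMYND8, ZNF687, ZNF592 and ZNF532, had log2 fold changes of 0.049, -0.035 and -0.067. ZNF592 was lower in every HA-IP than in every Flag-IP, by a small step that did not pass (limma adjusted p = 0.68). Of the RNA-binding members, ZNF346, which binds double-stranded RNA, had 864, 849 and 821 across the Flag-IPs against 762, 733 and 706 across the HA-IPs (-0.20 ± 0.066 (SE), limma adjusted p = 0.068). The remaining 4, ZNF326, ZNF385A, ZNF106 and ZNF473, had between -0.069 and 0.10.

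The histone methyltransferase partners ZNF644 and ZNF518B had 0.092 and 0.075, with overlapping groups. ZNF451, a SUMO ligase, had 0.092. Of the 8 genes listed as KRAB repressors of transposons and imprints, 6 were in the table and 3 were members. ZNF445, which guards imprinted loci, had 0.045. ZNF202 and ZNF268, for which that role was not examined here, had 0.022 and 0.15. In all 3 the groups overlapped. Among the transcription factors, ZNF143, which binds promoters and chromatin loop anchors, measured 873, 754 and 809.8 across the Flag-IPs against 877, 938 and 977 across the HA-IPs (0.20 ± 0.075 (SE), limma adjusted p = 0.11) and did not pass. ZNF24, ZNF131, ZNF148, ZNF217, ZNF219, ZNF281, ZNF335, ZNF395, ZNF462, ZNF608, ZNF609, ZNF652 and ZNF76 lay between -0.10 and 0.11. Of these, ZNF608 and ZNF217 were apart between the groups and the other 11 overlapped.

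**Figure D4:**
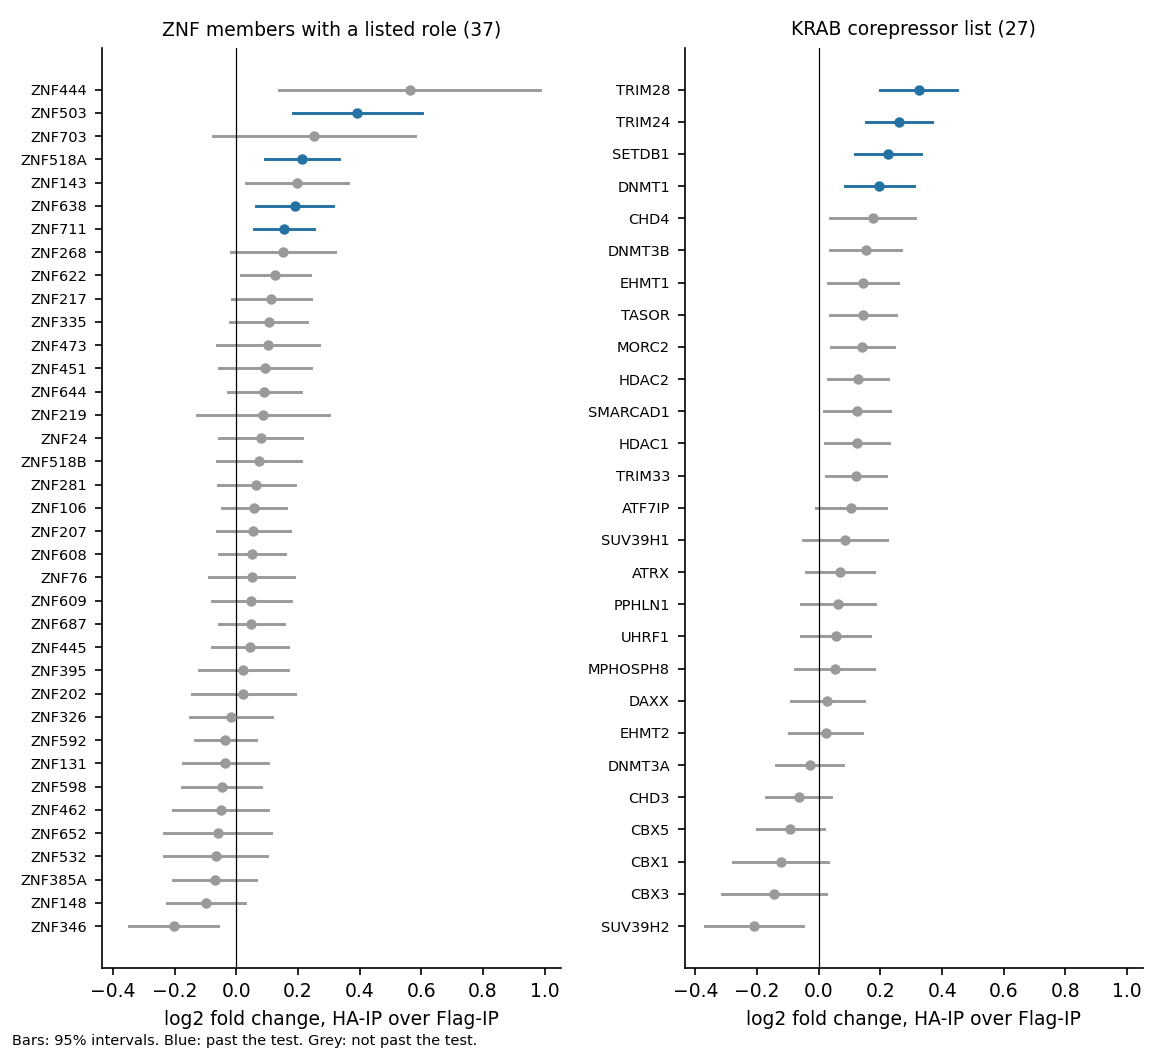
Log2 fold change, HA-IPs over Flag-IPs, with its 95% interval from limma, for the 37 members with a listed role (left) and the 27 genes of the KRAB corepressor list (right). Blue passed the test over all genes, and grey did not. The 4 genes past the test on the right are TRIM28, TRIM24, SETDB1 and DNMT1.

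Of the members grouped by GC content, those richest in GC varied most between replicates. Their Flag-IPs rose from replicate 1 to 3 in the median, and replicate 1 lay furthest from the other libraries. This was noticed in the data, so it is given without a test. The heart muscle markers fell in the median from Flag-IP replicate 1 to 3, the opposite order, and a link was not tested. The 10 members whose transcript holds at least 65% GC were ZNF205, ZNF219, ZNF358, ZNF444, ZNF579, ZNF580, ZNF628, ZNF703, ZNF787 and ZNF865, and ZNF205 alone has a KRAB box. In the median, they lay 0.51 under their mean over the 6 libraries in Flag-IP replicate 1 on the log2 scale. In Flag-IP replicates 2 and 3 they lay at -0.034 and 0.17, and in HA-IP replicates 1, 2 and 3 at 0.15, 0.21 and 0.030. In 9 of the 10 the lowest library was Flag-IP replicate 1, beside 13 of the 100 members with under 45% GC.

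ZNF444 measured 819, 1163 and 1720.2 across the Flag-IPs against 1695, 1881 and 1657 across the HA-IPs, and its log2 fold change of 0.56 ± 0.19 (SE), limma adjusted p = 0.081, did not pass although it was the second largest. ZNF579 measured 612, 957 and 1251 across the Flag-IPs against 1363, 1341 and 1152 across the HA-IPs (0.51 ± 0.19 (SE), limma adjusted p = 0.11). ZNF703 measured 5913, 8375 and 10353 across the Flag-IPs against 9278, 10285 and 9088 across the HA-IPs (0.25 ± 0.15 (SE), limma adjusted p = 0.31). In each of them Flag-IP replicate 1 was the lowest library, and Flag-IP replicate 2 also lay under every HA-IP. Flag-IP replicate 3 lay within the range of the HA-IPs in ZNF444 and ZNF579 and above it in ZNF703. Only ZNF580 of the 10 passed, with Flag-IP replicate 3 closest to the HA-IPs there too. With the trends of GC content and transcript length removed from each library, ZNF444 (0.47, limma adjusted p = 0.020), ZNF579 (0.44, limma adjusted p = 0.043) and ZNF205 (-0.22, limma adjusted p = 0.027) passed as well.

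The highest and lowest Flag-IP of these 10 members were 0.68 apart in the median on the log2 scale, and the highest and lowest HA-IP 0.18 apart. In the 100 members under 45% GC the corresponding values were 0.14 and 0.15. Between these, the 23 members with 60 to under 65% GC, ZNF503 and ZNF48 among them, lay at -0.14 in Flag-IP replicate 1. The same library was low for other genes of that composition, since among the 267 genes that reached a mean of 500 and at least 65% GC it was the lowest in 185 and the median deviation there was -0.17. Of the members with under 60% GC, 8 passed with the HA-IPs higher and 4 with the Flag-IPs higher, with a median log2 fold change of 0.050. Under 45% GC, 7% of the 100 members passed, beside 21.7% of the genes whose mean reached 500. From 45 to under 60% GC, 7.58% of the 66 members passed, beside 18.2%. From 60 to under 65% GC, 8.7% of the 23 members passed, all higher in the HA-IPs. Beside them 11.6% of the genes whose mean reached 500 passed, with 3.31% higher in the HA-IPs and 8.28% higher in the Flag-IPs.

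**Figure D5:**
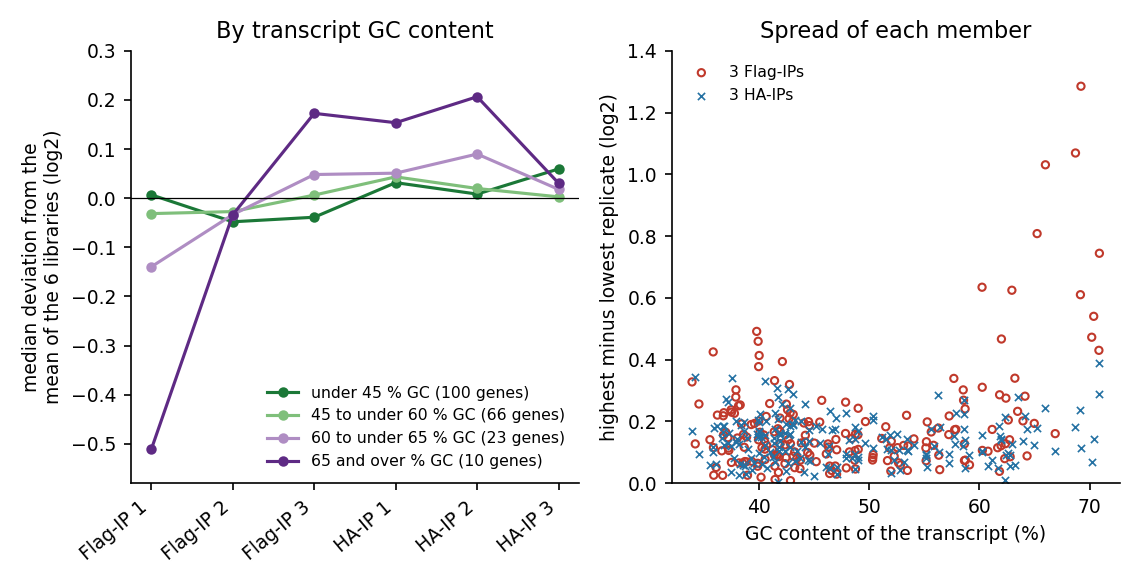
Left, median deviation from the mean of the 6 libraries (log2) in each library for members grouped by the GC content of the transcript. Right, GC content (%) against the highest minus the lowest replicate (log2) within the 3 Flag-IPs (red circles) and the 3 HA-IPs (blue crosses), 1 pair of points per member. The 10 members of at least 65% GC fall to -0.51 in Flag-IP replicate 1, and their Flag-IPs spread more than their HA-IPs in the median.

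With the trends of GC content and transcript length removed from each library, 12 members were higher in the HA-IPs, 7 were higher in the Flag-IPs, and 11 of the 15 named above were among them. ZNF711, ZNF638, ZNF37A and ZNF318 no longer passed, with limma adjusted p-values of 0.068, 0.13, 0.12 and 0.060. The 8 that passed only then were ZNF444, ZNF579, ZNF316, ZNF428 and ZNF622, higher in the HA-IPs, and ZNF346, ZNF205 and ZNF827, higher in the Flag-IPs. ZNF580 stayed at 0.82 and ZNF706 at -0.53 on the log2 scale.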

How the data were processed

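Poly(A) RNA from 3 Flag-IPs and 3 HA-IPs was sequenced in paired reads of 150 bp. The authors used Trimmomatic 0.36 for trimming and STAR 2.5.2b for mapping to GRCh38, and counted reads per gene, with featureCounts of Subread 1.5.2 listed in the submitters' processing notes. They dropped genes that did not reach 10 reads in 3 libraries. The deposited table of 16834 genes gives per library a signal, the read count of a gene divided by a DESeq2 size factor of the library. Multiplying back by the size factor gave whole reads for 100% of the values, with a tolerance of 0.001 of a read. The table also holds log2 fold changes and adjusted p-values of the authors' own comparison, which were not used. Whether counting used the strand is not given in the sources used here, so overlapping and antisense genes can share reads.

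Groups were taken from the labels. The members, the gene lists and the rule for named genes were chosen with earlier results of these data known. HA-IPs and Flag-IPs were compared on log2(normalized count + 1) in limma 3.58.1 (R 4.3.3), whose variance followed a trend on the mean, with two-sided p-values, Benjamini-Hochberg adjusted over all genes, at an adjusted p of at most 0.05. This scale slightly understates the change of low genes. The named members are those that passed with groups that did not overlap (up to 15 per direction), the 5 of highest mean per kb of transcript, the 2 on either side of the limit of 500 and those in a list of known roles, together with the corepressor list. Any other gene was singled out with its values known. Transcripts, lengths, GC content and coding sequences came from the canonical transcripts of GENCODE 44, which matched 16683 of the 16834 identifiers. A KRAB box was called with a profile built in HMMER 3.4 from 211 proteins with the core pattern of the box, which found 306 human proteins at an E-value of at most 0.001. The SCAN box was found likewise. Windows of the transcript, each slightly shorter than a read, that also occur in another gene's transcript were counted as shared.

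The alternatives used pseudocounts of 0.1 and 10, dropped genes whose mean was under 50, and used quantile normalization, the same total or upper quartile per library, limma without the trend, edgeR 4.0.16 and DESeq2 1.42.0 on the recovered reads, a replicate block, each library left out, removal of GC and length trends (natural splines of 5 degrees of freedom, MASS 7.3.60.0.1), an adjusted p of at most 0.01 and members with a mean of at least 250 or 1000. Members with under 60% GC were added after seeing the data. The tests per gene were tried on simulated counts with known changes. Replicates of a group differed by more than counting noise, and each library was treated as 1 sample. This spread does not show that the replicates came from separate cultures. Python 3.11.15, biopython 1.88 and matplotlib 3.10.9 were used for annotation and plots.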

Additional observations from a re-analysis of the deposited data

How the results depend on the processing

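The 11 members higher in the HA-IPs became 7 with quantile normalization, 3 with the same total per library, 0 in limma without the variance trend (where 32 members had an unadjusted p under 0.05, beside 8 higher in the HA-IPs by edgeR and 10 by DESeq2), 0 at an adjusted p of at most 0.01 and 7 among members with a mean of at least 1000. The 4 higher in the Flag-IPs became 1, 6, 0, 1 and 1 in the same order, and 7 with GC and length trends removed. With a KRAB box, the 6 that passed became 0 without the trend, 0 at 0.01 and 3 at a mean of at least 1000. Without a KRAB box, the 9 became 4 with quantile normalization, 5 with the same total, 0 without the trend, 1 at 0.01 and 5 at a mean of at least 1000. The 4 corepressor genes became 0 without the trend, 7 with GC and length trends removed and 2 at 0.01. Of those 7, 5 were higher in the HA-IPs, and SUV39H2 (-0.21, adjusted p = 0.043) and CBX5 (-0.16, adjusted p = 0.033) were higher in the Flag-IPs. SUV39H2 also passed with the same total (adjusted p = 0.044). Limma without the trend called 188 of all genes, so its 0 members follow a general loss of calls.

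The median log2 fold change of the members, 0.059, became 0.0059 with the same total, 0.018 with GC and length trends removed and 0.087 at a mean of at least 1000. With a KRAB box, 0.045 became 0.069 with quantile normalization, -0.0076 with the same total, 0.013 with the trends removed and 0.088 at a mean of at least 1000. Without a KRAB box, 0.075 became 0.022 with the same total and 0.027 with the trends removed. The difference between the median of the members and that of all genes was 0.064 as reported, 0.063 with the same total and 0.023 with quantile normalization.

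With 1 library left out, the members higher in the HA-IPs ranged from 0 to 24, those higher in the Flag-IPs from 1 to 6, those with a KRAB box that passed from 0 to 10, those without from 1 to 20, and the corepressor genes from 2 to 8. The medians of the members ranged from 0.049 to 0.066, from 0.034 to 0.054 with a KRAB box and from 0.053 to 0.087 without. Deviations of libraries of the same number from their group means correlated with r of -0.16, 0.031 and -0.31 across 13141 genes. Those of HA-IP replicate 3 and Flag-IP replicate 1 correlated with r of 0.30. With 3 libraries per group, these values cannot tell whether libraries of the same number came from the same culture. With the replicate block, 4 members were higher in the HA-IPs, 2 were higher in the Flag-IPs, 2 with a KRAB box and 4 without passed, and all genes gave 1662 calls.

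No member that passed the test changed direction under any alternative. Among named genes that did not pass, 31 fits gave the opposite sign. With the same total these were ZNF687 (-0.0042), ZNF445 (-0.0077), ZNF608 (-0.0016), EHMT2 (-0.030), DAXX (-0.025), ZNF76 (-0.0027), ZNF395 (-0.029), ZNF202 (-0.031), MPHOSPH8 (-0.0017) and ZNF609 (-0.0039). With quantile normalization they were EHMT2 (-0.035), DAXX (-0.016), ZNF106 (-0.0098), ZNF207 (-0.0099) and UHRF1 (-0.035). With GC and length trends removed they were ZNF395 (-0.016), ZNF202 (-0.011), ZNF219 (-0.082), ZNF106 (-0.0054) and ZNF609 (-0.022). With 1 library left out, the sign changed within the ranges of ZNF326 (-0.043 to 0.031), ZNF131 (-0.078 to 0.0036), ZNF462 (-0.096 to 0.020), EHMT2 (-0.027 to 0.068), DAXX (-0.019 to 0.070), ZNF395 (-0.015 to 0.049), ZNF202 (-0.022 to 0.061) and ZNF219 (-0.049 to 0.19). The causes were not tested. The libraries are deep for these genes, and the median SE of a member's log2 fold change was 0.072.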

Other observations

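Other families of C2H2 zinc finger genes were measured beside the ZNF members, with 12.9% of all genes past the test. Of the 40 ZBTB genes, which pair fingers with a BTB domain, 3 were higher in the HA-IPs, and 1 was higher in the Flag-IPs, with a median log2 fold change of 0.018. None of the 16 ZSCAN, 7 ZKSCAN and 15 ZFP genes passed in limma, where 0, 1 and 0 of them had an unadjusted p under 0.05, and the medians were 0.083, 0.042 and 0.025. In the ZSCAN genes the groups did not overlap in 6 (37.5%), all with the HA-IPs higher, beside 16.1% of all genes and 26.8% of genes whose mean reached 500. Of the 25 genes with a KRAB box under another symbol, none passed in limma, 1 had an unadjusted p under 0.05, and the median was 0.051.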
